A study of Mus musculus with 7 samples.

Results

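A set of 9 genes of the red cell membrane and of heme synthesis was followed here through all libraries of the series, chosen by gene symbol from the deposited count table. They are Rhd, Slc4a1, Ermap, Aqp1, Alas2, Car1, Car2, Epor and Hemgn, and all 9 were found among the 23284 genes of the table. The samples were hematopoietic stem cells (HSCs) of the bone marrow of C57BL/6 mice that carry Hdc-GFP, a green fluorescent protein reporter named for Hdc, whose product, histidine decarboxylase, synthesises histamine. The labels do not say which regulatory sequence drives the reporter. Both groups carry the reporter and differ in the sorted fraction: 3 libraries of bright cells, Hdc-GFPhi, were set against 4 libraries of dim cells, Hdc-GFPlo. In the labels, Hdc-GFPlo replicate 4 has Hdc-GFP- as its sorted fraction, unlike the other 3 of its group. Each library was made from 500 sorted cells. The labels give no treatment, age, sex or animal number, so nothing shows that replicates came from separate animals, and p-values measure the spread between these libraries, which may be technical.

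Red blood cells carry oxygen and carbon dioxide, and the genes described here serve the cell surface and the chemistry behind that task. Rhd, Slc4a1, Ermap and Aqp1 encode membrane proteins, Alas2 encodes the enzyme that starts heme synthesis in red cell precursors, and Car1 and Car2 encode carbonic anhydrases, which interconvert carbon dioxide and bicarbonate. Epor encodes the receptor for erythropoietin, the hormone that keeps red cell precursors alive, and Hemgn encodes a nuclear protein of blood-forming cells. The transcription factor Gata1, which binds GATA motifs, and Klf1, which binds CACCC motifs, drive many red cell genes, whereas stem cells upstream of the red cell lineage are known to express only part of this program.

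Promoters of 3 genes whose counts were near 0 in some libraries and high in others (Rhd, Ermap and Alas2) are shown with that of Epor, which was counted in every library. The sequences are those of RefSeq on build GRCm38.p6, from 250 bases before to 50 bases after the transcription start, read 5′ to 3′ on the gene's strand, with capitals for the GATA motif (searched on either strand as AGATAA, as well as AGATAG, besides the forms TGATAA and also TGATAG). They lie at chr4:134864286-134864585 (plus strand) for Rhd, chr4:119189946-119190245 (minus strand) for Ermap, chrX:150547167-150547466 (plus strand) for Alas2 and chr9:21963527-21963826 (minus strand) for Epor.
Rhd: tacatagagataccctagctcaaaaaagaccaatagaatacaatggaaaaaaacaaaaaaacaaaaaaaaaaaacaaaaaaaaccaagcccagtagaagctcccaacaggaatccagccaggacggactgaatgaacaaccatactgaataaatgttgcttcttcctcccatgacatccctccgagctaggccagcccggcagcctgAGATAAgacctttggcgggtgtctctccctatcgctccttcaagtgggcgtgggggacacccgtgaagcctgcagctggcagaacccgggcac
Ermap: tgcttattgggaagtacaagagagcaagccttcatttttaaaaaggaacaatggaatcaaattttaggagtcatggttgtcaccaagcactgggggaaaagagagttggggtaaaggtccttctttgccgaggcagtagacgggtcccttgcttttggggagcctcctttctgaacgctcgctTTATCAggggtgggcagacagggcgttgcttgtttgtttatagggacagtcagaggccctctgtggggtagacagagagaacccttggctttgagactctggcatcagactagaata
Alas2: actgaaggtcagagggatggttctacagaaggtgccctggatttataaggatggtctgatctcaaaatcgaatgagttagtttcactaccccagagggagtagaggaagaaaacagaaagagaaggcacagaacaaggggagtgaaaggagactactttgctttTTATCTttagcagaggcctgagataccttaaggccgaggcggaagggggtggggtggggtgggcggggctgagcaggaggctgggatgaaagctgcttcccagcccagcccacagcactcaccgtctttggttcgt
Epor: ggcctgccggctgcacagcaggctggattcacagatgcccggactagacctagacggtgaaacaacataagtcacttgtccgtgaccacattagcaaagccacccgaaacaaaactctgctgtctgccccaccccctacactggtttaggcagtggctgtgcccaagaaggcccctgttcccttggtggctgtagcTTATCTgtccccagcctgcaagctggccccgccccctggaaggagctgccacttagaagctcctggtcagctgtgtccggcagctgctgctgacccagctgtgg
In each of these 4 promoters 1 GATA motif was found, whose first base stood 43 bases before the start in Rhd, 67 in Ermap, 86 in Alas2 and 54 in Epor. The letters CACCC, on either strand and with no overlap with a GATA motif, occurred 2 times in Rhd, 1 time in Ermap, 3 times in Alas2 and 2 times in Epor. RefSeq promoters were matched for 6 of the 9 genes. Of the other 2 matched, Hemgn held 2 GATA motifs and no CACCC, and Aqp1 held no GATA motif and 3 CACCC. Slc4a1, Car1 and Car2 were not matched. Of all 32851 promoters of this length, 29.8% hold the GATA motif and 57.5% hold CACCC. A match is a description of letters and not a measured binding site.

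Total counts ranged over 21090553 to 23688672 for Hdc-GFPhi libraries and over 19606124 to 22472061 for Hdc-GFPlo libraries. Levels below are CPM (counts scaled to equal library size) after TMM scaling, a correction for library composition, and means are given ± SD over 3 Hdc-GFPhi and 4 Hdc-GFPlo libraries. Hdc itself averaged 30.0 ± 9.996 CPM in Hdc-GFPhi and 14.7 ± 7.26 CPM in Hdc-GFPlo, with overlapping groups and its lowest level, 4.44 CPM, in Hdc-GFPlo replicate 4. All 10 HSC markers on the list used for this check (Kit and Meis1 among them) were detected, with summed levels of 3454 to 3759 CPM in Hdc-GFPhi and 3993 to 4238 CPM in Hdc-GFPlo. In bulk RNA, fewer cells of a type and less RNA per cell cannot be told apart.

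Setting Hdc-GFPhi against Hdc-GFPlo asked whether these genes differed between the bright and dim fractions. No difference passed the test, for the members as for all other genes, and the intervals of several members are wide. Of the 9, 8 members passed the filter on low counts (Slc4a1 did not), 6 with higher and 2 with lower fitted values in Hdc-GFPhi. Of these 8, 0 passed edgeR's quasi-likelihood test over all genes (Benjamini-Hochberg adjusted p of 0.05), 0 had an unadjusted p under 0.05, and 0 had groups that did not overlap. Over all 12917 genes tested the same shares were 0%, 12.2% and 11.9%, and 51.6% had higher values in Hdc-GFPhi. DESeq2 called 2.72% of the genes to which it gave an adjusted p, and 0 of the members. The spread between libraries of the same fraction exceeded the difference between the fractions for most of these genes, and each is therefore given by library.

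**Figure D1:**
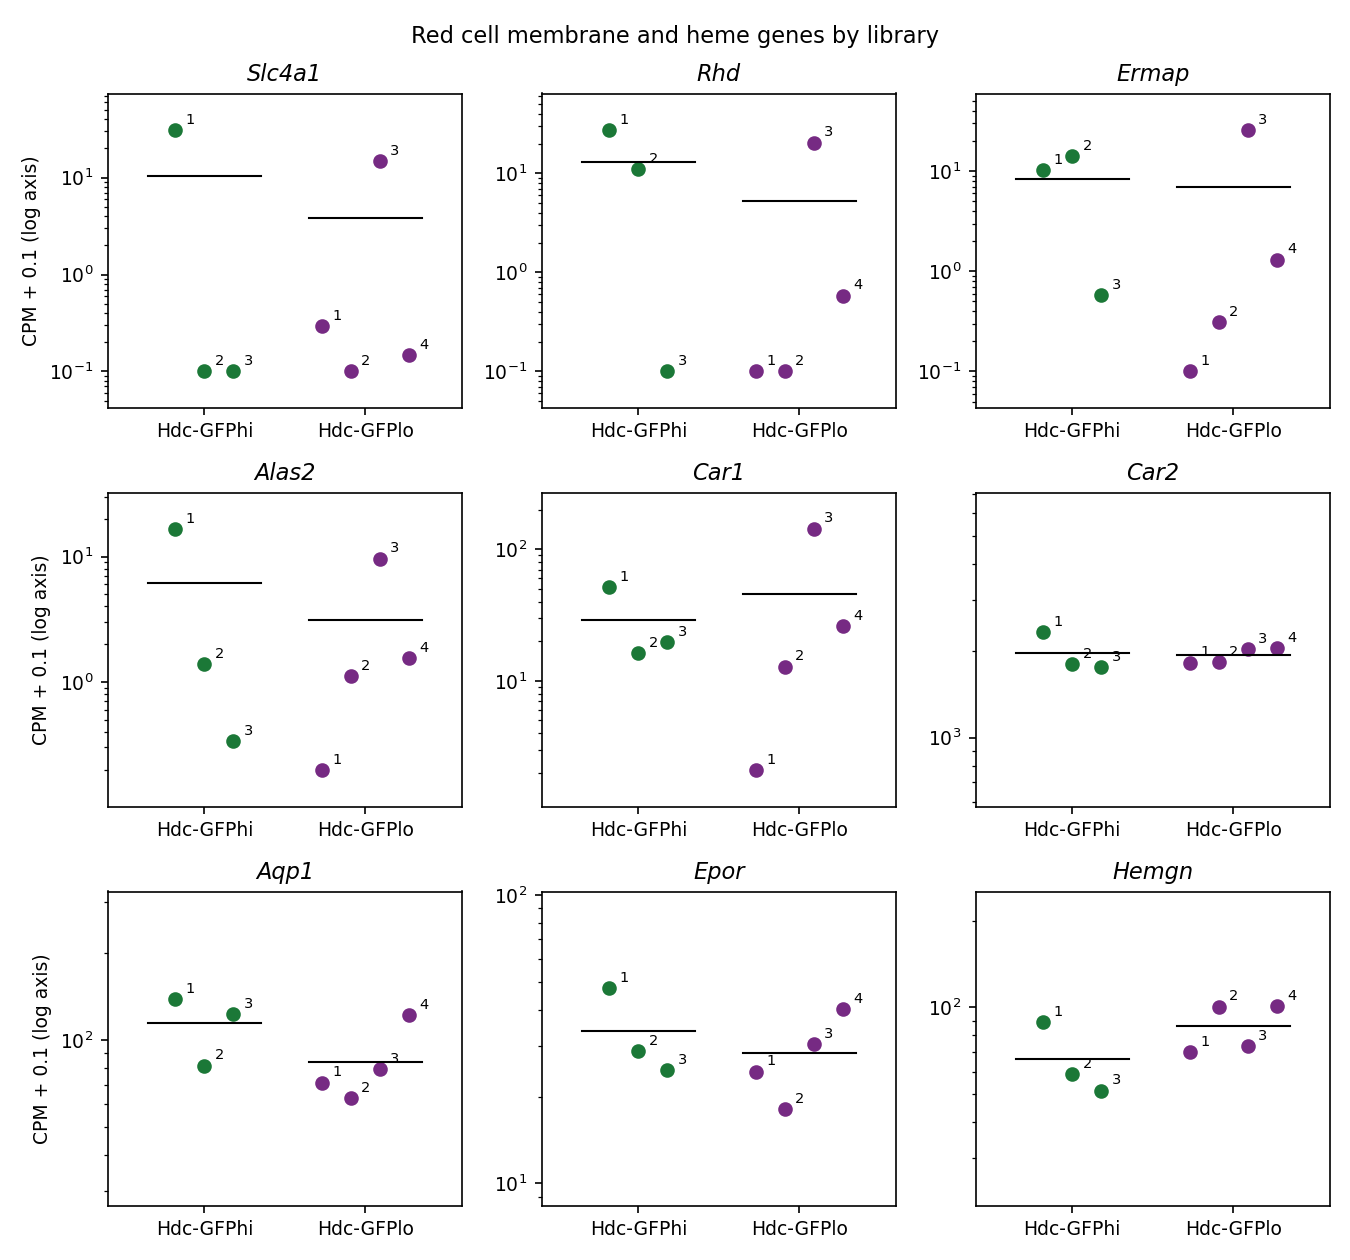
Level of each member in each library, as CPM plus 0.1 on a log axis, with Hdc-GFPhi (green) left of Hdc-GFPlo (purple), replicate numbers beside the points and the mean of each group as a line. Slc4a1, Rhd, Ermap, Alas2 and Car1 spread widely within both groups, while Car2, Aqp1, Epor and Hemgn stay within 2.64-fold between the highest and the lowest library.

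Among the membrane proteins, Rhd, which encodes a carrier of Rh blood group antigens, was present in some libraries and at 0 in others. It was counted 622, 265 and 0 times in Hdc-GFPhi replicates 1 to 3, against 0, 0, 456 and 10 times in Hdc-GFPlo replicates 1 to 4. Both groups thus held libraries with many counts and libraries with none. The means were 12.8 ± 13.8 CPM in Hdc-GFPhi and 5.21 ± 10.1 CPM in Hdc-GFPlo, with a log2 fold change of 1.30 (SE 2.38, 95% interval -4.63 to 7.22, edgeR adjusted p = 0.874). A count of 0 allows up to 3 counts, or 0.127 to 0.153 CPM of the library totals, for counting error only.

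Slc4a1 encodes band 3, the anion exchanger that swaps chloride for bicarbonate across the red cell membrane. It was counted 703, 0 and 0 times in Hdc-GFPhi, against 4, 0, 329 and 1 times in Hdc-GFPlo. A single library of each fraction, Hdc-GFPhi replicate 1 at 31.1 CPM and Hdc-GFPlo replicate 3 at 14.7 CPM, held 99.5% of its counts. It did not pass the filter, and a fit with no filter gave a log2 fold change of 1.46 (edgeR adjusted p = 0.868). DESeq2 gave it no p-value.

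Ermap encodes an immunoglobulin-like protein of red cell precursors that carries the Scianna blood group in humans. It was counted 230, 339 and 10 times in Hdc-GFPhi, against 0, 4, 580 and 25 times in Hdc-GFPlo. Its highest level, 25.9 CPM, was in Hdc-GFPlo replicate 3, followed by 14.1 CPM in Hdc-GFPhi replicate 2 and 10.2 CPM in Hdc-GFPhi replicate 1. The means, 8.24 ± 7.01 CPM in Hdc-GFPhi and 6.82 ± 12.7 CPM in Hdc-GFPlo, gave a log2 fold change of 0.27 (SE 1.98, edgeR adjusted p = 0.970).

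Aqp1, the water channel of the red cell membrane that endothelium also expresses, behaved otherwise and was well counted in every library. Its levels were 139, 81.6 and 123 CPM in Hdc-GFPhi, against 71.1, 63.0, 79.3 and 122 CPM in Hdc-GFPlo. All 3 Hdc-GFPhi libraries lay above Hdc-GFPlo replicates 1 to 3, and replicate 4 lay among the Hdc-GFPhi libraries. The means were 114 ± 29.4 CPM in Hdc-GFPhi and 83.9 ± 26.3 CPM in Hdc-GFPlo, and the log2 fold change of 0.45 (SE 0.24, 95% interval -0.09 to 0.99) did not pass (edgeR unadjusted p = 0.0940, adjusted p = 0.482). Over the fits that each left out 1 library, the log2 fold change of Aqp1 ran from 0.29 to 0.69. The first was without Hdc-GFPhi replicate 1 (edgeR unadjusted p = 0.311). The last was without Hdc-GFPlo replicate 4 (edgeR unadjusted p = 0.00719, adjusted p = 0.262). In that last fit, 1657 of the 12807 genes tested had an unadjusted p under 0.05.

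Alas2 encodes the red cell form of 5-aminolevulinate synthase, the rate-limiting enzyme of heme synthesis in that lineage. It was counted 375, 31 and 5 times in Hdc-GFPhi, against 2, 19, 214 and 30 times in Hdc-GFPlo, so that the same library of each fraction as for Slc4a1 stood highest. The levels averaged 6.03 ± 9.15 CPM in Hdc-GFPhi and 3.03 ± 4.38 CPM in Hdc-GFPlo, with a log2 fold change of 0.99 (SE 1.44, edgeR adjusted p = 0.827). Exons of Alas2 overlap those of Apex2 on the opposite strand in the GENCODE M21 annotation, and the amplification kit does not mark strand. Apex2 was counted 313 to 568 times in every library, also where Alas2 had 2 counts. Alas1, the form of the enzyme used in all tissues, averaged 92.6 ± 23.6 CPM in Hdc-GFPhi and 76.1 ± 2.85 CPM in Hdc-GFPlo.

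The 2 carbonic anhydrase genes differed from each other in level and in spread. Car1 was counted 1170, 389 and 411 times in Hdc-GFPhi, against 41, 239, 3205 and 536 times in Hdc-GFPlo. Its highest and its lowest level, 143 and 1.99 CPM, were both in Hdc-GFPlo. The means of 29.1 ± 19.6 CPM in Hdc-GFPhi and 45.9 ± 65.5 CPM in Hdc-GFPlo gave a log2 fold change of -0.66 (SE 1.37, edgeR adjusted p = 0.887).

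Car2 was at 2323, 1804 and 1756 CPM in Hdc-GFPhi, against 1821, 1824, 2024 and 2044 CPM in Hdc-GFPlo. The groups overlapped, and the highest library was 1.32 times the lowest. The means of 1961 ± 314 CPM in Hdc-GFPhi and 1928 ± 122 CPM in Hdc-GFPlo gave a log2 fold change of 0.02 (SE 0.10, edgeR adjusted p = 0.943). Its 95% interval ran from 0.870-fold to 1.19-fold. Per kilobase of exon, Car2 ranked 12 of 20845 genes by its median level over the libraries.

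Epor was at 47.4, 28.6 and 24.5 CPM in Hdc-GFPhi, against 24.3, 18.0, 30.2 and 40.1 CPM in Hdc-GFPlo. Hdc-GFPhi replicate 1 and Hdc-GFPlo replicate 4 were the highest, and the groups overlapped at means of 33.5 ± 12.2 CPM in Hdc-GFPhi and 28.2 ± 9.39 CPM in Hdc-GFPlo. The log2 fold change was 0.25 (SE 0.30, edgeR adjusted p = 0.781). Hemgn was at 88.7, 58.6 and 51.4 CPM in Hdc-GFPhi, against 69.8, 101, 73.2 and 101 CPM in Hdc-GFPlo. Hdc-GFPhi replicates 2 and 3 lay below all 4 Hdc-GFPlo libraries, while Hdc-GFPhi replicate 1 lay among them. The means of 66.2 ± 19.8 CPM in Hdc-GFPhi and 86.1 ± 16.9 CPM in Hdc-GFPlo gave a log2 fold change of -0.38 (SE 0.21, edgeR unadjusted p = 0.108, adjusted p = 0.503). Over the fits that each left out 1 library, the log2 fold change of Hemgn ran from -0.65 to -0.23. The first was without Hdc-GFPhi replicate 1 (edgeR unadjusted p = 0.00819, adjusted p = 0.555), the last without Hdc-GFPhi replicate 3 (unadjusted p = 0.321). Only without Hdc-GFPhi replicate 1 was the unadjusted p under 0.05, as for 997 of the 13287 genes tested in that fit.

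**Figure D2:**
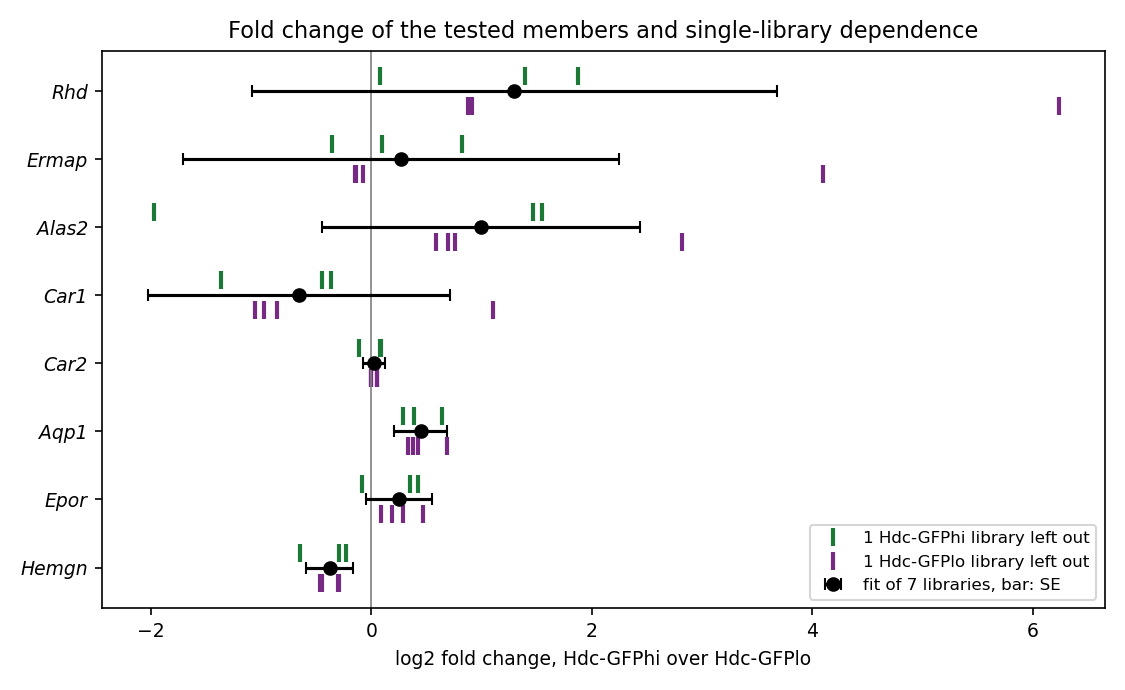
Log2 fold change of Hdc-GFPhi over Hdc-GFPlo for the 8 tested members, with the fit of 7 libraries as a black point and its SE as a bar, and the 7 fits that each leave out 1 library as ticks (green for Hdc-GFPhi, purple for Hdc-GFPlo). Rhd (0.08 to 6.24), Ermap, Alas2 and Car1 move widely with single libraries, while Car2 stays close to 0.

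Compared per kilobase of exon, a scale that allows genes to be set side by side, Car2 had the highest median over the 7 libraries at 1020.0 CPM per kilobase. Aqp1 (31.1), Hemgn (29.1), Epor (16.3) and Car1 (15.6 CPM per kilobase) followed. Alas2 (0.632), Rhd (0.319), Ermap (0.265) and Slc4a1 (0.0106 CPM per kilobase) were lowest. Aqp1 was above Hemgn in 5 of 7 libraries and Epor above Car1 in 3 of 7, so neither pair had a fixed order. The ranges of Alas2, Rhd, Ermap and Slc4a1 overlapped throughout, and the order of these 4 was not fixed either, with each above the next in 4 or 5 of the 7 libraries.

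The members Slc4a1, Alas2, Rhd, Car1 and Ermap thus drew most of their counts from a few libraries, which lay in both fractions. Their profiles were not alike in every library, since Hdc-GFPhi replicate 2 had 265 counts of Rhd and 339 of Ermap but 0 of Slc4a1. Hdc-GFPhi replicate 1 and Hdc-GFPlo replicate 3 together held 29.6% of all counts in the table. They held 99.5% of the counts of Slc4a1, 87.1% of Alas2, 79.7% of Rhd, 73.0% of Car1 and 68.2% of Ermap. With Hdc-GFPhi replicate 2 added, whose share raises that of all counts to 45.4%, the 3 libraries held 99.3% of Rhd and 96.7% of Ermap. For the other members the share of the first 2 libraries was 31.5% to 37.8%. These libraries were singled out after their values were seen, and the shares are a description with no test. The coefficient of variation over the 7 libraries was 125% to 184% for the 5 genes and 10.4% to 33.2% for Car2, Aqp1, Epor and Hemgn, against a median of 18.8% over all genes tested.

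**Figure D3:**
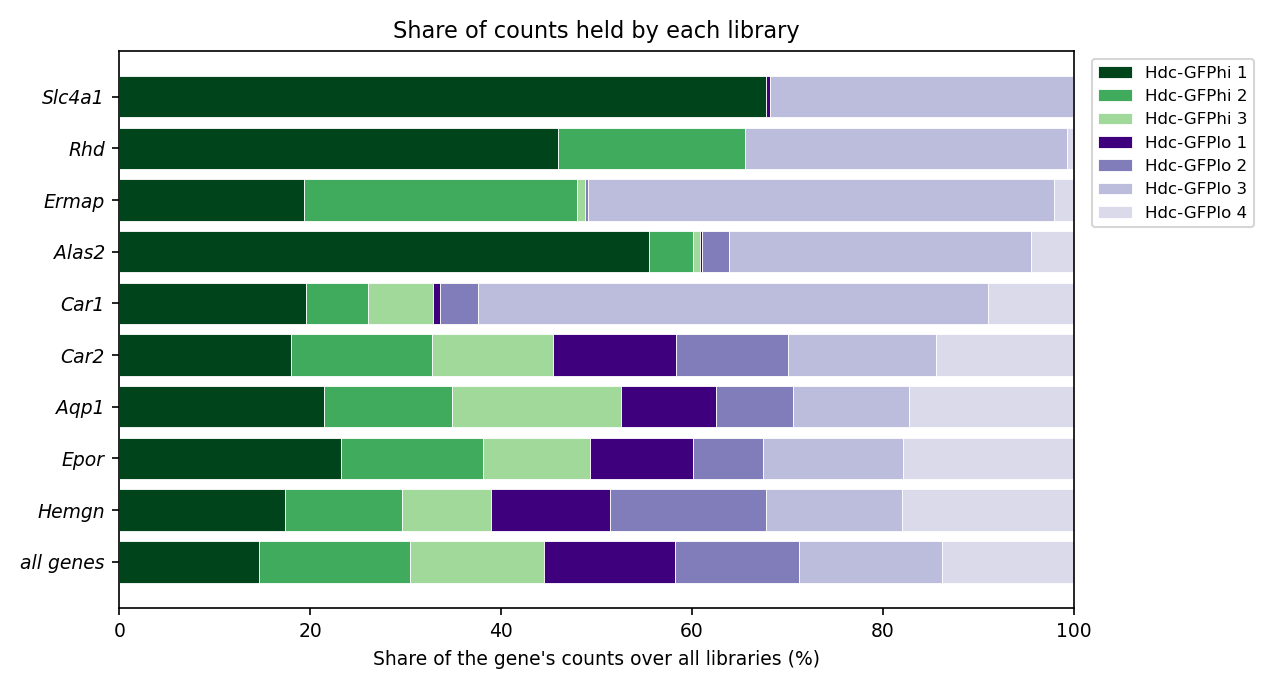
Share of each member's counts over all libraries that each library holds, in percent, with Hdc-GFPhi in greens and Hdc-GFPlo in purples and the share of all genes as the lowest bar. Slc4a1, Rhd, Ermap, Alas2 and Car1 draw most of their counts from Hdc-GFPhi replicate 1 and Hdc-GFPlo replicate 3, joined by Hdc-GFPhi replicate 2 for Rhd and Ermap.

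The summed late red cell markers were highest in the same library of each fraction. The 8 late red cell markers found in the table summed to 107, 44.6 and 13.7 CPM in Hdc-GFPhi, against 10.9, 20.4, 66.0 and 28.4 CPM in Hdc-GFPlo. That sum includes the members Alas2 and Slc4a1. The 4 adult globin genes (Hba-a1, Hba-a2, Hbb-b1 and Hbb-b2), which define late red cells, were counted 0 times in every library, also where Slc4a1 had 703 counts. These genes are near-identical copies whose reads the counting could split or drop, so the zeros are uncertain.

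Summed markers of myeloid progenitors were also highest in these libraries, and the sums of most other cell types were not. Myeloid progenitor markers (5 of 5 detected, Mpo and Elane among them) summed to 2638, 912 and 416 CPM in Hdc-GFPhi, against 704, 590, 1443 and 137 CPM in Hdc-GFPlo. Markers of eosinophils, basophils and mast cells (8 of 8 detected) summed to 1023 CPM in Hdc-GFPhi replicate 1 and to 399 to 485 CPM in the other libraries. Outside Hdc-GFPhi replicate 1, most of that sum was Gata2, which is also on the list of red cell transcription factors. Gata2 was at 382 to 430 CPM in Hdc-GFPhi and 384 to 468 CPM in Hdc-GFPlo. Prg2 was at 519 CPM in Hdc-GFPhi replicate 1 and at 0.499 to 8.26 CPM in the other libraries. Ms4a2 and Fcer1a had 0 counts in Hdc-GFPhi replicate 1. Neutrophil markers (9 of 9 detected) summed to 5840 to 8131 CPM in Hdc-GFPhi and 2791 to 6796 CPM in Hdc-GFPlo. That sum had no peak in Hdc-GFPhi replicate 1 or Hdc-GFPlo replicate 3. Of its genes, Mmp8 (170 and 64.4 CPM) and Mmp9 (137 and 41.8 CPM) were the highest of their fraction in both libraries, and the others were not. The part of these cell types in the levels of the members was not tested. The labels give no batch, so no value within batches could be had. Endothelial markers, relevant to Aqp1, summed to 192 to 234 CPM in Hdc-GFPhi and 215 to 267 CPM in Hdc-GFPlo, with 7 of 8 detected. Among them Tek was at 88.2 to 112 CPM in Hdc-GFPhi and 101 to 126 CPM in Hdc-GFPlo, and Pecam1 was at 54.5 to 94.0 CPM in Hdc-GFPhi and 45.5 to 99.2 CPM in Hdc-GFPlo. Cdh5 had at most 2 counts in a library and Lyve1 had 0. The part of endothelium in the level of Aqp1 was not tested. Megakaryocyte and platelet markers (9 of 10 detected, Gp6 at 0) summed to 1828 to 2241 CPM in Hdc-GFPhi and 1533 to 1981 CPM in Hdc-GFPlo. Lymphocyte markers summed to 92.7 to 126.5 CPM in Hdc-GFPhi and 68.3 to 99.4 CPM in Hdc-GFPlo, with Cd3e at 0. Osteoclast and macrophage markers summed to 47.0 to 68.4 CPM in Hdc-GFPhi and 35.02 to 76.6 CPM in Hdc-GFPlo, with Ctsk at 0.

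The wider red cell membrane and skeleton list held 24 genes, and 23 were tested. Values were higher in Hdc-GFPhi for 15 and lower for 8, 0 passed the test, and the median log2 fold change was 0.14, against 0.01 over all genes tested. The median ran from -0.04 to 0.27 over the fits without 1 library. At an unadjusted p under 0.05 were 0 higher and 2 lower genes, against 4.92% and 7.31% of all genes tested, and DESeq2 called 1 gene of the list. The 2 lower genes were Tmod3, which caps actin filaments, at 214 ± 23.8 CPM in Hdc-GFPhi and 267 ± 7.12 CPM in Hdc-GFPlo (a log2 difference of -0.32, SE 0.09, edgeR adjusted p = 0.275), and Xk, the Kell-associated transporter-like protein (-0.47, SE 0.19, adjusted p = 0.363). The genes with the highest levels were Cd47, the surface signal that protects cells from phagocytes, at 926 ± 24.9 CPM in Hdc-GFPhi and 973 ± 82.3 CPM in Hdc-GFPlo, and the adducin gene Add1. Not every red cell gene peaked in the same libraries. Ank1, the gene for the ankyrin that anchors band 3 to the skeleton, was counted 93, 21 and 0 times in Hdc-GFPhi, against 16, 168, 66 and 8 times in Hdc-GFPlo. Rhag, the gene for the partner of Rhd in the Rh complex, was counted 703, 448 and 167 times in Hdc-GFPhi, against 169, 268, 519 and 457 times in Hdc-GFPlo. It was highest in the same library of each fraction as Slc4a1 but was present in every library.

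Heme synthesis and its mitochondrial supply had 13 members with higher and 3 with lower values among 16 tested (median 0.24 on the log2 scale, or 0.06 without Hdc-GFPhi replicate 1), and 0 passed the test. At an unadjusted p under 0.05, 4 were higher and 1 was lower, with Uros, Tmem14c and Ppox among the higher, against 4.92% higher and 7.31% lower of all genes tested. DESeq2 called 1 of the 16, against 2.72% of all genes. Uros, the gene for uroporphyrinogen III synthase, was at 41.4 ± 6.08 CPM in Hdc-GFPhi and 27.5 ± 2.77 CPM in Hdc-GFPlo (a log2 difference of 0.59, SE 0.16, edgeR adjusted p = 0.239). Tmem14c, which encodes a porphyrin transporter of mitochondria, was at 132 ± 3.97 CPM in Hdc-GFPhi and 109.6 ± 6.82 CPM in Hdc-GFPlo (0.27, SE 0.09, adjusted p = 0.305). For both genes every Hdc-GFPhi library lay above every Hdc-GFPlo library, as for 6.02% of all genes tested. The highest levels were those of the heme transporter gene Slc48a1, at 379 ± 24.8 CPM in Hdc-GFPhi and 371 ± 33.5 CPM in Hdc-GFPlo, and of Urod, the next enzyme after Uros, at 153 ± 32.3 CPM in Hdc-GFPhi and 133 ± 16.0 CPM in Hdc-GFPlo. Of the members only Alas2 belongs to this list.

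**Figure D4:**
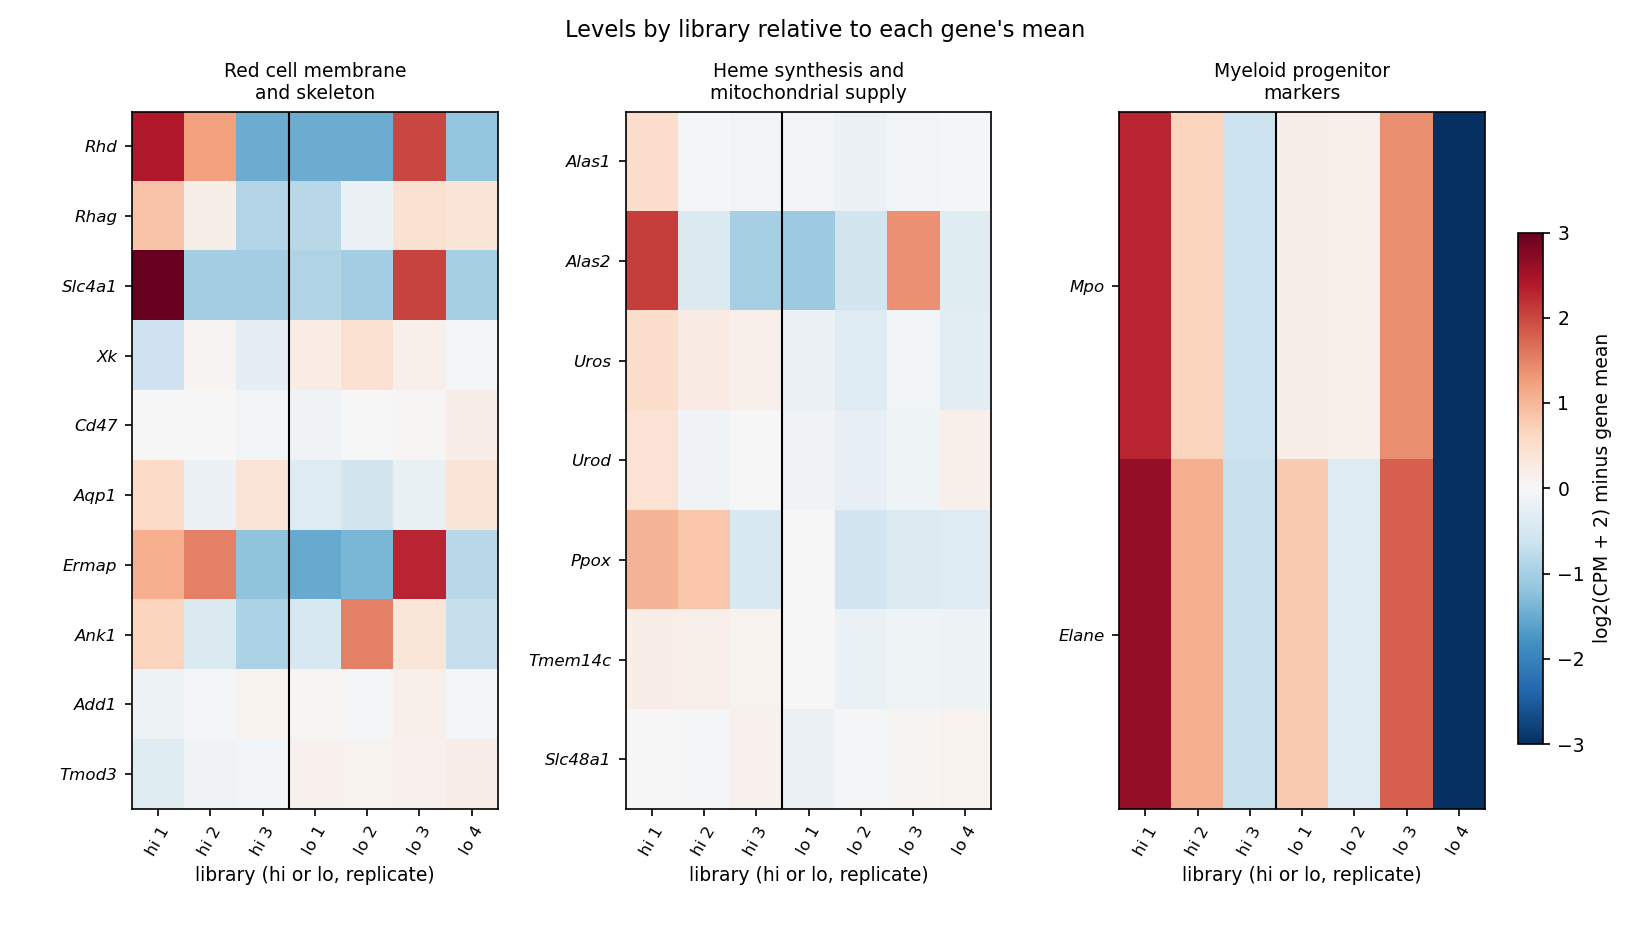
Log2 (CPM + 2) of each gene minus its mean over the 7 libraries, as colour (values beyond the scale take its end colour), for named genes of the red cell membrane list, the heme list and the myeloid progenitor markers, with Hdc-GFPhi libraries left of the black line and Hdc-GFPlo libraries right of it. Rhd, Slc4a1, Ermap, Alas2, Mpo and Elane are high in Hdc-GFPhi replicate 1 and Hdc-GFPlo replicate 3, while the heme genes shown other than Alas2 vary less.

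Downstream of Epor, 15 genes of erythropoietin receptor signalling had 7 members with higher and 8 with lower values (median -0.002 on the log2 scale, -0.068 without Hdc-GFPhi replicate 3 and 0.037 without Hdc-GFPlo replicate 4), with 0 past the test. Pim1, a kinase gene induced by Stat5, was at 21.9 ± 13.1 CPM in Hdc-GFPhi and 11.6 ± 2.92 CPM in Hdc-GFPlo (0.91, SE 0.37, edgeR adjusted p = 0.374), and Sh2b3, an inhibitor of the pathway, had a log2 fold change of 0.34 (SE 0.15, adjusted p = 0.417). The phosphatase gene Ptpn6 and the transcription factor gene Stat5b had the highest levels, at 565 ± 81.3 and 263 ± 40.0 CPM in Hdc-GFPhi against 507 ± 18.0 and 263 ± 14.2 CPM in Hdc-GFPlo. Among 17 red cell transcription factors and cofactors 11 were higher and 6 lower (median 0.12), with 0 past the test. That median was 0.03 without Hdc-GFPhi replicate 1 and 0.23 without Hdc-GFPlo replicate 4. E2f4 (0.25, SE 0.09, adjusted p = 0.334) and the Lmo2 partner Ldb1 (0.28, SE 0.11, adjusted p = 0.363) had the smallest p. Lmo2 and Nfe2 had the highest levels, at 1201 ± 192 and 784 ± 144 CPM in Hdc-GFPhi against 1033 ± 108.6 and 808 ± 124 CPM in Hdc-GFPlo. Gata1 averaged 148 ± 15.7 CPM in Hdc-GFPhi and 128 ± 20.3 CPM in Hdc-GFPlo, and Klf1 24.1 ± 10.3 CPM in Hdc-GFPhi and 20.9 ± 8.11 CPM in Hdc-GFPlo.

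Iron handling genes had 10 members with higher and 5 with lower values among 15 tested (median 0.044 on the log2 scale, 0.015 without Hdc-GFPhi replicate 3 and 0.072 without Hdc-GFPlo replicate 3), with 0 past the test. The ferritin light chain gene Ftl1 was at 576 ± 83.6 CPM in Hdc-GFPhi and 465 ± 34.5 CPM in Hdc-GFPlo (0.31, SE 0.11, edgeR adjusted p = 0.311), and Slc40a1, the gene for the iron exporter ferroportin, had a log2 fold change of 0.40 (SE 0.20, adjusted p = 0.440). Fth1, the heavy chain gene, was at 1428 ± 155 CPM in Hdc-GFPhi and 1435 ± 129.9 CPM in Hdc-GFPlo. Of 15 genes of early red cell and shared red cell and megakaryocyte progenitors, 12 had higher values (median 0.206, 0.062 without Hdc-GFPhi replicate 1 and 0.425 without Hdc-GFPhi replicate 3). In that list 6 were higher at an unadjusted p under 0.05, against 4.92% of all genes tested, and 0 passed edgeR's test. They were led by Mfsd2b (0.55, SE 0.09) and the platelet gene Pf4 (1.09, SE 0.18), with an adjusted p of 0.211 for both. The others were Vwf, Itga2b, Tspan33 and Apoe. Pf4, Vwf and Itga2b are also among the megakaryocyte and platelet markers. The rest of the list, Gata1, Klf1, Epor, Rhag and Tfrc among them, had edgeR unadjusted p of 0.150 to 0.978. DESeq2 called 4 of the 15, against 2.72% of all genes. Its highest levels were those of Nfe2 and of Apoe, the gene for apolipoprotein E, whose log2 fold change was 0.35 (SE 0.15, adjusted p = 0.392).

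Relatives of the members were counted too. Of 16 carbonic anhydrase genes, 11 were tested, 6 with higher and 5 with lower values (median 0.024 on the log2 scale, -0.243 without Hdc-GFPhi replicate 1 and 0.221 without Hdc-GFPlo replicate 3). Car3 was counted 208, 247 and 264 times in Hdc-GFPhi, against 1174, 1830, 313 and 276 times in Hdc-GFPlo. Every Hdc-GFPhi library lay below every Hdc-GFPlo library, as for 5.87% of all genes tested, but the excess came from Hdc-GFPlo replicates 1 and 2, which were low for Slc4a1 and Rhd (log2 fold change -2.09, SE 0.75, edgeR adjusted p = 0.338). Car15 (2.14, SE 1.18, adjusted p = 0.495) was counted at most 47 times in a library, and Car9 was at 30.1 ± 13.2 CPM in Hdc-GFPhi and 25.8 ± 3.98 CPM in Hdc-GFPlo. Of 11 aquaporin genes 5 were detected and 3 tested. Aqp9, the glycerol channel, was at 95.4 ± 10.7 CPM in Hdc-GFPhi and 102 ± 17.5 CPM in Hdc-GFPlo, and Aqp11 was at 5.88 ± 0.760 CPM in Hdc-GFPhi and 6.06 ± 0.934 CPM in Hdc-GFPlo. In a list of butyrophilin and tripartite motif genes that includes Ermap, 4 were tested and all 4 had higher values, but 0 were higher without both Hdc-GFPhi replicate 1 and Hdc-GFPlo replicate 4. Trim10, a gene of late red cell precursors, was counted 170, 43 and 0 times in Hdc-GFPhi, against 1, 2, 99 and 6 times in Hdc-GFPlo. Trim58 and Btnl9 had log2 fold changes of 0.15 (SE 0.27) and 0.26 (SE 0.49), which did not pass. Among globin genes 3 of 9 had any count, Hbq1b with at most 8, Hbb-y with at most 6 and Hba-x with at most 2 in a library.

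Genes with profiles most like those of the members were sought among all genes tested, by Pearson's r of log2 (CPM + 2) over the 7 libraries. These are few points, which also carry differences of group and cell mixture, and the values are descriptions. The closest to Rhd were Cldn13 (r = 0.995), 1300017J02Rik (0.988) and Col5a1 (0.974). Cldn13 was counted 442, 248 and 0 times in Hdc-GFPhi, against 0, 0, 296 and 0 times in Hdc-GFPlo. The closest to Ermap were Tspo2 (0.986), Rab19 (0.975) and Abcg4 (0.968). Tspo2 was counted 38, 65 and 8 times in Hdc-GFPhi, against 0, 0, 92 and 13 times in Hdc-GFPlo. Alas2 was closest to Zfp628 (0.976), Ccdc116 (0.976) and Ptgr1 (0.975), and Car1 to Bcl2l12 (0.976), Eif2b1 (0.969) and Sfxn1 (0.958). Car2 was closest to 6530418L21Rik (0.985), Uchl1 (0.977) and Dnajc12 (0.975). Aqp1 was closest to Zkscan6 (0.992), Esam (0.986) and Bcat2 (0.984), Epor to Dtwd1 (0.997), Letm2 (0.983) and Cela1 (0.972), and Hemgn to Cd200 (0.984), Stx17 (0.983) and Sc5d (0.972). Among the members, r was 0.972 between Slc4a1 and Alas2 and 0.947 between Rhd and Ermap. For Hemgn it was -0.035 with Aqp1 and -0.132 with Ermap. Car2, which varied little, had r of 0.880 with Alas2, 0.839 with Slc4a1 and 0.852 with Epor, above the 0.681 between Ermap and Slc4a1.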

How the data were processed

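RNA sequencing of 7 libraries was analysed from the deposited table. Per the labels' protocols, RNA from sorted cells (PicoPure) was turned into cDNA and amplified (SMARTer), and Nextera XT libraries were sequenced. No molecular identifiers are mentioned, so counts include amplification duplicates and limits on zeros cover counting error only. The authors deposited raw read counts per gene. Per the submitters' processing notes, bcl2fastq 1.8.4, Bowtie2, TopHat2 (2.0.4 or 2.04), HTSeq 0.6.1 and the mouse build mm9 were used. For annotation, strand setting and filters, the sources used here give nothing. Columns were matched to samples by library code, and all 7 were used.

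In R 4.3.3 with edgeR 4.0.16, filterByExpr (minimum count 10) left 12917 genes. The quasi-likelihood test with TMM factors and robust fitting compared the fractions, with no covariate and with Benjamini-Hochberg adjustment over all genes tested and a threshold of 0.05. Each SE was obtained by dividing the size of the log2 fold change by the root of its F statistic. The steps were tested on simulated data. Alternatives were other scalings and filters, DESeq2 1.42.0, limma 3.58.1 (voom with quality weights), no robust setting, a replicate block and leaving out libraries. Exon lengths and overlaps came from GENCODE M21 (GRCm38), and levels per kilobase are CPM divided by exon length.

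The members and lists were chosen with earlier results of these data known. From each list, the 2 genes with the smallest unadjusted p and the 2 with the highest level were named, and for each tested member the 3 genes most alike. Ppox, Alas1, Rhag, Ank1, Gata1, Klf1, Apex2, Gata2, Prg2, Vwf, Itga2b and Tspan33 were added after their values were seen. So were the markers Ms4a2, Fcer1a, Mmp8, Mmp9, Cd79b, Ncr1, Il2rb and Gzma. A few genes of the lists are not reported here by name.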

Additional observations from a re-analysis of the deposited data

Results flagged for a closer look

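Within the 4 Hdc-GFPlo libraries, 50 sets of values were checked for a library that stands apart, by the gap to its nearest neighbour divided by the range of the group, and 12 exceeded Dixon's critical value at the 95% level. Chance flags about 1 in 20 sets of normally distributed values. Several sets here are skewed levels near 0, which can be flagged more often, so the 12 cannot be set against that share. The sets are also not independent, since several share genes or libraries. Hdc-GFPlo replicate 3 was the high one for 5 of the 9 members. The ratio was 0.987 for Slc4a1 (14.7 CPM, next 0.194), 0.976 for Rhd (20.3 CPM, next 0.483), 0.953 for Ermap (25.9 CPM, next 1.21), 0.857 for Alas2 (9.55 CPM, next 1.45) and 0.8305 for Car1 (143 CPM, next 25.9). The same library was the high one for Trim10, with a ratio of 0.945 (4.42 CPM, next 0.290), and for Hbb-y, with a ratio of 1.0 on 6 counts against 0 in the others. A gene at 0 in the 3 other libraries always gives 1.0, so for Hbb-y and Hbq1b the ratio carries no information.

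Hdc-GFPlo replicate 4 was the high one for Hbq1b, with a ratio of 1.0 on 4 counts, and for the summed endothelial markers, with 0.868 (266.6 CPM, next 222). Tmod3 gave 0.849 (highest 278 CPM, next 265), Mfsd2b gave 0.889 (lowest 122 CPM, next 139.6), and the summed lymphocyte markers gave 0.842 (lowest 68.3 CPM, next 94.5). The 3 Hdc-GFPhi libraries are too few for this check.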

How the results depend on the processing

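The count of genes past the test over all genes was 0 in every edgeR and limma fit and 355 with DESeq2. Genes at an unadjusted p under 0.05 were 1579, with 997 to 1884 when 1 library was left out (fewest without Hdc-GFPhi replicate 1), and 783 without both Hdc-GFPhi replicate 1 and Hdc-GFPlo replicate 3, an alternative chosen after seeing the data. Of the 1579, 635 were higher in Hdc-GFPhi, against 825 of 1591 when scaled by library totals only. None of 143 member values passed under any alternative (smallest adjusted p 0.262), and 10 of the 143 had an unadjusted p under 0.05. Over all genes tested that share was 12.2% in the fit of all libraries. The alternatives share libraries, so the 143 values are not independent. Directions held in 122 of the 143, in all for Aqp1 (0.26 to 0.69) and Hemgn (-0.72 to -0.23), and 21 reversed, for which the cause was not tested. Leaving out 1 library gave log2 fold changes of 0.08 to 6.24 for Rhd, -0.36 to 4.1 for Ermap, -1.98 to 2.82 for Alas2, -1.37 to 1.11 for Car1, -0.115 to 0.089 for Car2 and -0.083 to 0.47 for Epor. The lowest Alas2 and Epor values came without Hdc-GFPhi replicate 1, and the highest Rhd, Ermap and Car1 values without Hdc-GFPlo replicate 3. Rhd and Ermap without Hdc-GFPlo replicate 3 had edgeR unadjusted p of 0.0280 and 0.0197 (adjusted 0.502 and 0.483). In that fit 1192 of the 12741 genes tested had an unadjusted p under 0.05. Without both Hdc-GFPhi replicate 1 and Hdc-GFPlo replicate 4, values were -0.31 for Rhd, -2.22 for Alas2, -0.10 for Car2 and -0.27 for Ermap. Without both Hdc-GFPhi replicate 1 and Hdc-GFPlo replicate 3, they were -0.16 for Alas2, 0.39 for Car1, -0.10 for Car2 and -0.051 for Epor. Limma gave 0.22 for Car1 and -0.019 for Car2. With the replicate block, Car1 was at 0.46, 0 genes passed and 1589 were at an unadjusted p under 0.05. Same-numbered libraries did not deviate alike from their group means (correlations of -0.063, -0.006 and -0.141, with -0.141 to 0.132 over all pairs across the fractions). With 3 and 4 libraries this cannot show whether replicate numbers pair the samples, and the block is given here only. Counting error was small beside the spread between libraries, whose chi-square per degree of freedom within a fraction was 25.4 to 92.5.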
